A study of Mus musculus with 10 samples.

Results

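The potassium channel genes described here are 9 that were measured in the left atrium of mice after pressure overload: the small-conductance calcium-activated (SK) channel genes Kcnn1, Kcnn2 and Kcnn3, the two-pore channel genes Kcnk2 and Kcnk3, the delayed rectifier pore genes Kcnq1 and Kcnh2, and the auxiliary subunit genes Kcne1 and Kcne4. They were taken by symbol from the deposited count tables, and all 9 were found among the 48397 gene symbols listed. The animals were wild-type mice operated on at 2 months of age, and the design text adds that they were C57BL/6J males. One group underwent constriction of the transverse aorta (TAC), a surgical narrowing that makes the heart pump against a higher pressure, and the other a sham operation, and atrial RNA was taken 2 weeks later. Each group had 5 libraries, which the labels do not tie to separate animals, so p-values reflect no more than the spread of these libraries, part of which may be technical. The design text names the left appendage where the sample labels name the left atrium, and the sources also name different library kits. All libraries carry the same genotype.

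SK channels open when calcium inside the cell rises, whatever the membrane voltage, and in the heart they contribute to repolarisation mainly in the atria. Two-pore channels carry a background potassium current that sets the resting potential. Kcnk2 encodes TREK-1, which opens with membrane stretch, and Kcnk3 encodes the acid-sensitive TASK-1, a channel of the atrium. Kcnq1 and Kcnh2 encode the pores of the slow and the rapid delayed rectifier currents, which end the action potential. Kcne1 encodes the subunit that turns KCNQ1 into the slow current, and Kcne4 a related subunit that inhibits KCNQ1 when both are expressed.

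Each library held between 17117306 and 43956384 counts assigned to genes, and Sham replicates 1 and 2 were the shallowest. The atrial myosin light chain genes Myl7 and Myl4, at 8888 ± 623 and 11628 ± 867 CPM in sham (counts per 1000000 counts of the library, SD, n = 5), were far above the ventricular genes Myl2 at 60.3 ± 90.0 CPM and Myl3 at 133 ± 114 CPM. In TAC, Myl2 was at 4.80 ± 3.71 CPM and Myl3 at 121 ± 124 CPM. Of 15175 genes that passed the filter on low counts, 56.8% differed between TAC and sham at an adjusted p under 0.05 (edgeR quasi-likelihood test, Benjamini-Hochberg adjustment), 28.9% upward and 27.9% downward.

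The starts of the 3 genes with a single start in the RefSeq promoter table (GRCm38.p6) are shown because Kcnn3 and Kcnh2 fell while Kcne4 rose. Kcnn3 and Kcnh2 are given over the 250 bases before the RefSeq start, and Kcne4 over the 97 bases before its first GENCODE exon, which begins 153 bases before the RefSeq start. The windows are chr3:89519914-89520163 on the plus strand, chr5:24329592-24329841 on the minus strand and chr1:78816661-78816757 on the plus strand. The Kcnh2 start lies inside the GENCODE gene, not at its first exon. Capitals mark GGAA (the core bound by ETS factors such as ETV1, which the series is named for), GGGCGG (the GC box), CCAAT and CACGTG (an E-box), each searched on both strands, so that GGAA on the other strand reads TTCC.
Kcnn3: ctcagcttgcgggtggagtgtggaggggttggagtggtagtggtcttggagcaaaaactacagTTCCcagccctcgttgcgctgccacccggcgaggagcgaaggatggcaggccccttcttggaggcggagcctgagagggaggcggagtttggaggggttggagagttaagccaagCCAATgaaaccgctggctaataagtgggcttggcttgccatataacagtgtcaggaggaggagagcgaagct
Kcnh2: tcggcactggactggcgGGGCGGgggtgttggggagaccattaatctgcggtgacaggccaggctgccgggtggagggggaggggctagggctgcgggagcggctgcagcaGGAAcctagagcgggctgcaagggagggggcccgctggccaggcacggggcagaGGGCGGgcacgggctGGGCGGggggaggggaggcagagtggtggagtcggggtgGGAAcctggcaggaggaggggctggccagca
Kcne4: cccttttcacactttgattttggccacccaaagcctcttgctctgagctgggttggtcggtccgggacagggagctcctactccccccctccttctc
Over the full window of 300 bases (250 before and 50 after the start), GGAA matched in all 3 genes, as it did in 96% of the 32851 promoters in the table. Kcnh2 held 3 GC boxes, a motif present in 35.7% of promoters, and Kcnn3 1 CCAAT, present in 37.4%. Kcne4 held CACGTG 54 bases before its RefSeq start, in the part not printed, a motif found in 7.15% of promoters. The Kcnh2 stretch was 73.6% G and C, against a median of 52.4% over all promoters. Of the 9 genes, 5 matched the table, and the other two of those, Kcnn1 and Kcnk2, have several starts.

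All 3 SK channel genes fell. Kcnn2, which encodes SK2, fell most, from 13.1 ± 2.16 CPM in sham to 4.55 ± 1.36 CPM in TAC (SD, n = 5), Kcnn3 (SK3) fell from 4.33 ± 0.807 to 2.11 ± 0.617 CPM, and Kcnn1 (SK1) fell from 12.8 ± 1.23 to 8.93 ± 1.38 CPM. These CPM were scaled by TMM factors, which allow for differences in RNA composition. In bulk tissue, fewer cells of a type and less RNA per cell cannot be told apart. Beside these and the other decreases, all 10 cardiomyocyte marker genes fell, and their summed level ran from 83379 to 99856 CPM in sham and from 37002 to 50904 CPM in TAC. The part of cell composition in the channel results was not tested.

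Kcnn2 stood at 14.5, 14.8, 14.6, 10.2 and 11.4 CPM in Sham replicates 1 to 5 and at 6.94, 3.94, 3.52, 4.14 and 4.20 CPM in TAC replicates 1 to 5. The groups did not overlap, and TAC replicate 1 lay above the 4 other TAC libraries. The log2 fold change (TAC over sham) was -1.52 (SE 0.19, adjusted p = 5.3e-05 with edgeR), or 2.88-fold lower by the ratio of means. Kcnn2 lies on chromosome 18 and shares 8.13% of its exonic bases with opposite-strand transcripts. Of these, A330093E20Rik (284 shared bases) had at most 5 counts in any library. The transcribed pseudogene AC121957.1 (323 shared bases) is not among the listed symbols.

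Kcnn3 (chromosome 3, 89520164 to 89675132, GRCm38) stood at 5.34, 4.98, 4.13, 3.69 and 3.49 CPM in sham and at 2.94, 1.62, 1.45, 2.06 and 2.51 CPM in TAC, again without overlap and with TAC replicate 1 the highest of its group. Its log2 fold change was -1.02 (SE 0.22, adjusted p = 0.0019). Between 49 and 143 counts lay behind each Kcnn3 value. Kcnn1 (chromosome 8, 70842049 to 70863258) was at 12.3, 10.9, 13.98, 13.5 and 13.2 CPM in sham and at 10.5, 9.74, 9.09, 6.84 and 8.50 CPM in TAC. The lowest sham library lay just above the highest TAC library, and the log2 fold change of -0.52 (SE 0.12, adjusted p = 0.0036) was the smallest of the 9. Scaled by library size alone, Kcnn1 lost its call (log2 fold change -0.16, adjusted p = 0.25). Kcnn1 shares 2.88% of its exonic bases with the opposite-strand transcript A230052G05Rik, which was at 1.27 ± 0.362 CPM in sham and 0.418 ± 0.281 CPM in TAC.

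**Figure D1:**
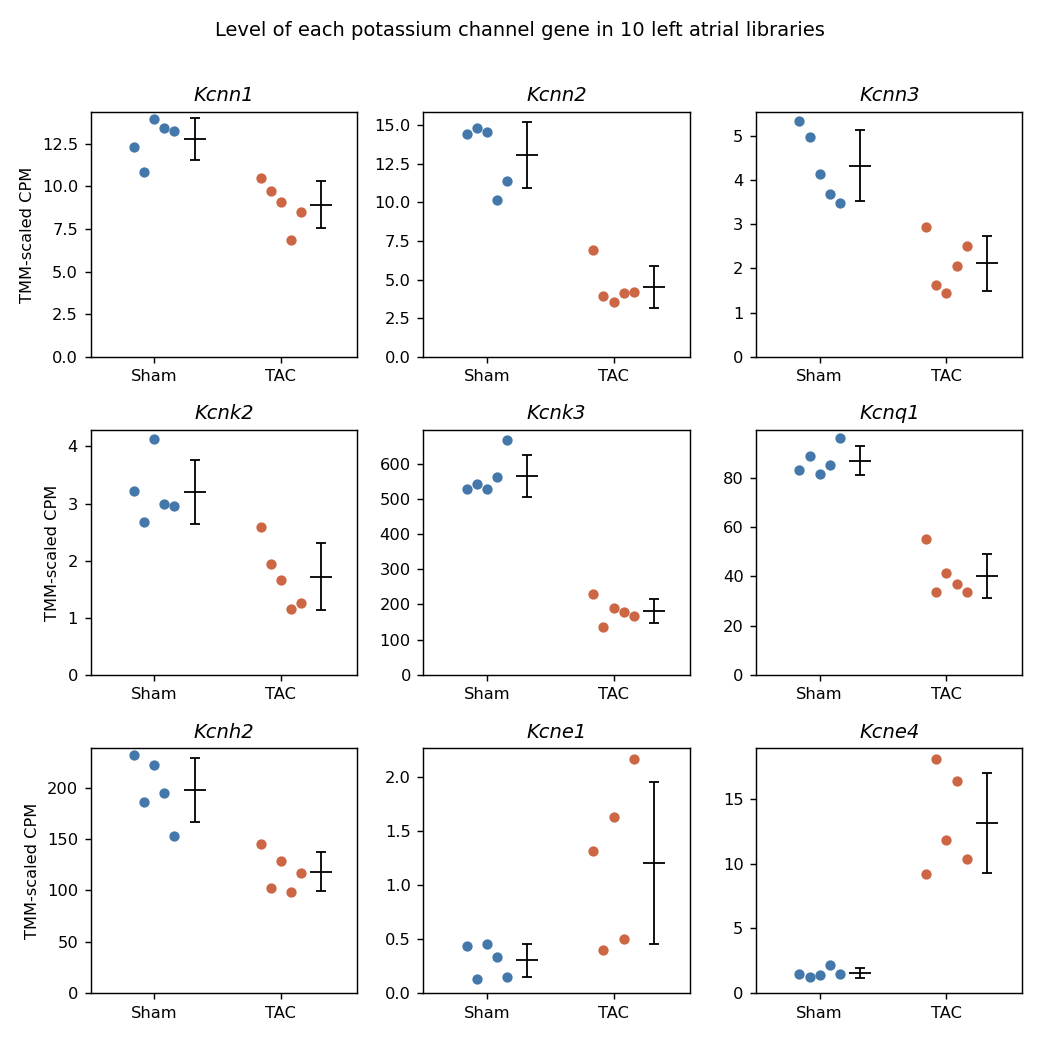
TMM-scaled CPM of each gene in the 5 Sham (blue) and 5 TAC (orange) libraries, with replicates 1 to 5 drawn from left to right and the mean ± SD as a bar at the right of each group. In 7 panels the TAC points lie below the sham points, in the Kcne4 panel they lie above them, and in the Kcne1 panel the groups overlap.

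The makeup of the SK group shifted along with its level. Per kilobase of exon, the summed SK level fell from 4.95 ± 0.308 to 2.76 ± 0.461 CPM per kb. Kcnn1 made up 56.3% ± 5.84 of that sum in sham and 70.8% ± 5.12 in TAC, Kcnn2 35.3% ± 4.66 and 21.9% ± 3.67, and Kcnn3 8.36% ± 1.44 and 7.35% ± 1.78 (SD, n = 5). These shares depend on the length used, that of all annotated exons of a gene together (4.587 kb for Kcnn1, 7.468 kb for Kcnn2 and 10.45 kb for Kcnn3). The change in makeup was tested with ratios of counts within a library, which do not depend on scaling. The Kcnn1 to Kcnn2 ratio rose from 1.01 ± 0.238 to 2.04 ± 0.475, a log2 difference of 1.02 (exact permutation p = 0.0079, the smallest that 252 regroupings allow, adjusted p = 0.017 over 17 ratios). It ran from 0.733 to 1.32 in sham and from 1.51 to 2.57 in TAC. The adjusted p of every ratio, here and below, counts the ratios of Kcne1, which passed the low-count filter through its TAC libraries. No call is therefore taken from the adjusted p of a ratio. The Kcnn2 to Kcnn3 ratio fell from 3.04 ± 0.348 to 2.17 ± 0.329 without overlap (log2 difference -0.49, exact permutation p = 0.0079, adjusted p = 0.017). The Kcnn1 to Kcnn3 ratio was 3.05 ± 0.763 in sham and 4.49 ± 1.47 in TAC, with overlapping groups (exact permutation p = 0.14, adjusted p = 0.17).

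Kcnk3 was by far the most abundant of the 9 genes and had the largest decrease. TASK-1 transcripts fell from 566 ± 59.2 to 181 ± 34.1 CPM (SD, n = 5), or 3.12-fold by the ratio of means. The sham libraries held 527, 542, 529, 562 and 668 CPM and the TAC libraries 231, 137, 190, 180 and 168 CPM. Every TAC value was under 50% of the lowest sham value, and Sham replicate 5 stood above the other sham libraries. The log2 fold change was -1.64 (SE 0.13, adjusted p = 3.0e-06 with edgeR), and -1.29 (adjusted p = 2.5e-06) when scaled by library size alone. Kcnk3 (chromosome 5, 30588170 to 30625271) shares 229 exonic bases, 5.76% of its exon length, with the opposite-strand transcript Gm9899. Gm9899 had nearly the same log2 fold change (-1.65, SE 0.13), from 40.4 ± 5.98 to 12.9 ± 1.96 CPM. The strand setting of the counting is not given in the sources used here, and each library has a tally of ambiguous reads (3.85% to 6.09%). Whether reads from the shared bases were counted for either gene or set aside in that tally is not known.

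Kcnk2, the stretch-sensitive member, was scarce and fell as well, from 3.20 ± 0.556 to 1.72 ± 0.580 CPM (a log2 change of -0.89, SE 0.24, adjusted p = 0.0066). The sham values were 3.23, 2.68, 4.13, 2.99 and 2.96 CPM and the TAC values 2.59, 1.94, 1.66, 1.15 and 1.27 CPM. The highest TAC library, replicate 1, lay just under the lowest sham library. Only 39 to 136 counts lay behind each value, and scaling by library size alone gave an adjusted p of 0.049. Kcnk2 (chromosome 1, 189207930 to 189402273) shares 12.2% of its exonic bases with the antisense transcript A430027H14Rik, which had 2 counts in all 10 libraries together. The Kcnk2 to Kcnk3 ratio was 0.00577 ± 0.00132 in sham and 0.00969 ± 0.00312 in TAC (log2 difference 0.72, exact permutation p = 0.024, adjusted p = 0.045), with overlapping groups. That call was lost on leaving out any 1 library except Sham replicate 3 (adjusted p up to 0.090). Its adjusted p counts the ratios of Kcne1, which passed the low-count filter through its TAC libraries, so nothing is read from the call. At least 98.9% of the summed two-pore level per kilobase of these 2 genes was Kcnk3 in every library.

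The pore genes of both delayed rectifier currents fell. Kcnq1 fell from 86.9 ± 5.79 to 40.2 ± 9.02 CPM and Kcnh2, which encodes the ERG channel, from 198 ± 31.2 to 118 ± 19.1 CPM (SD, n = 5). Kcnq1 (chromosome 7, 143106362 to 143427042) stood at 83.0, 88.8, 81.5, 85.3 and 96.1 CPM in sham and at 55.3, 33.7, 41.3, 36.8 and 33.7 CPM in TAC. Sham libraries were close together, with a coefficient of variation of 6.66%, and TAC replicate 1 was again the TAC library nearest to sham. The log2 fold change of Kcnq1 was -1.11 (SE 0.13, adjusted p = 2.9e-05). Kcnq1ot1, the imprinted antisense RNA that runs through the gene on the other strand, was at 2.06 ± 0.591 and 1.79 ± 0.464 CPM (a log2 change of -0.22, SE 0.26, adjusted p = 0.50) and shares 2.96% of the exonic bases of Kcnq1.

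Kcnh2 (chromosome 5, 24319589 to 24351604) stood at 232, 186, 222, 195 and 153 CPM in sham and at 145, 103, 128, 98.6 and 117 CPM in TAC. The lowest sham library, replicate 5, was close to the highest TAC library, replicate 1, without overlap. Its log2 fold change was -0.74 (SE 0.13, adjusted p = 0.00061), and -0.39 (adjusted p = 0.027) when scaled by library size alone. The Kcnq1 to Kcnh2 ratio was 0.453 ± 0.109 in sham and 0.338 ± 0.0385 in TAC, with overlapping groups, and did not pass after adjustment (log2 difference -0.40, exact permutation p = 0.048, adjusted p = 0.074).

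The auxiliary subunit genes went the other way. Kcne4 rose from 1.54 ± 0.379 to 13.2 ± 3.88 CPM (SD, n = 5), an 8.56-fold difference of means and the largest change of the 9 genes (a log2 change of 3.07, SE 0.24, adjusted p = 2.2e-06). Sham libraries held 1.43, 1.21, 1.37, 2.19 and 1.501 CPM and TAC libraries 9.23, 18.1, 11.8, 16.4 and 10.3 CPM. The lowest TAC library was replicate 1, and it was still above every sham library. Kcne4 (chromosome 1, 78816758 to 78820028) shares no exonic base with another annotated gene. Among fibroblast markers, 5 of 8 were higher and 1 lower, and the summed level was 2136 to 2824 CPM in sham and 5387 to 12446 CPM in TAC. The collagen genes Col1a1, Col1a2 and Col3a1 weigh most in that rise, with Col3a1 going from 457 ± 107 to 3431 ± 1107 CPM. Dcn fell from 1195 ± 186 to 903 ± 92.0 CPM, and Pdgfra and Dpt were not called. All 7 macrophage markers were higher as well, from a sum of 180 to 307 CPM in sham to 367 to 688 CPM in TAC. Smooth muscle markers, 2 of 6 higher and 1 lower, summed to 228 to 292 CPM in sham and 240 to 452 CPM in TAC. The part of these cell types in the Kcne4 result was not tested.

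Kcne1 was close to the limit of detection. Its counts were 7, 2, 15, 13 and 4 in the sham libraries and 57, 16, 55, 17 and 82 in the TAC libraries, or 0.301 ± 0.155 and 1.20 ± 0.752 CPM (SD, n = 5). The highest sham library (0.456 CPM) lay above the lowest TAC library (0.399 CPM). The log2 fold change was 1.95 (SE 0.53, adjusted p = 0.0076). Kcne1 reached the level of the low-count filter (0.309 CPM before TMM scaling) in 5 TAC libraries but in only 2 sham libraries. It thus passed that filter through the group in which it was higher, and its call is not read as support. The other 8 genes reached that level in all 10 libraries. Kcne1 lies on chromosome 16, 92345982 to 92359468, with no exonic overlap.

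In all, 7 of the 9 genes were called lower, beside 27.9% of all tested genes, and 2 higher, beside 28.9%. Of the latter, Kcne1 passed the filter through its TAC libraries, so the tally is a description and not support. CPM of the groups did not overlap for 8 of the 9, beside 41.7% of all tested genes. These were 7 lower in TAC, beside 20.2% of tested genes, and 1 higher, beside 21.5%. The median log2 fold change was -0.89 over the 9 genes and 0.01 over all tested genes. Scaled by library size alone, these medians were -0.55 and 0.37, 80.1% of all calls were upward in place of 50.9%, and no gene of the 9 changed direction.

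**Figure D2:**
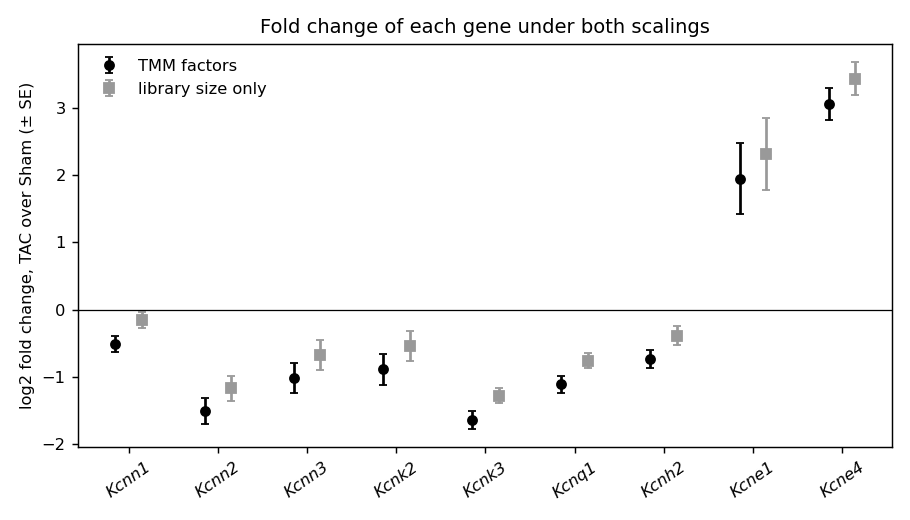
Log2 fold change of TAC over Sham for each gene with its standard error, fitted with TMM factors (black circles) or with library size as the only scaling (grey squares). Values with library size alone lie higher for every gene, and Kcnn1 moves from -0.52 to -0.16.

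Ratios of subunit to pore counts combine a gene that rose with one that fell, so their log2 differences exceed those of the single genes by construction. The Kcne4 to Kcnq1 count ratio rose from 0.0180 ± 0.00455 in sham to 0.349 ± 0.145 in TAC (SD, n = 5). It ran from 0.0140 to 0.0258 in sham libraries and from 0.167 to 0.537 in TAC libraries. The log2 difference was 4.20, or 18.3-fold (exact permutation p = 0.0079, adjusted p = 0.017). Kcne4 and Kcnq1 each separated the groups, in opposite directions, so their ratio had to separate them as well. Its p-value is therefore no further support. The Kcne1 to Kcnq1 ratio was 0.00380 ± 0.00196 in sham and 0.0309 ± 0.0218 in TAC, given as values only, since Kcne1 passed the low-count filter through its TAC libraries. The Kcne4 to Kcne1 ratio was 5.84 ± 2.73 in sham and 19.0 ± 17.9 in TAC, with overlapping groups, and is likewise given as values only. Among TAC libraries it ranged from 4.76 in replicate 5 to 44.0 in replicate 2.

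**Figure D3:**
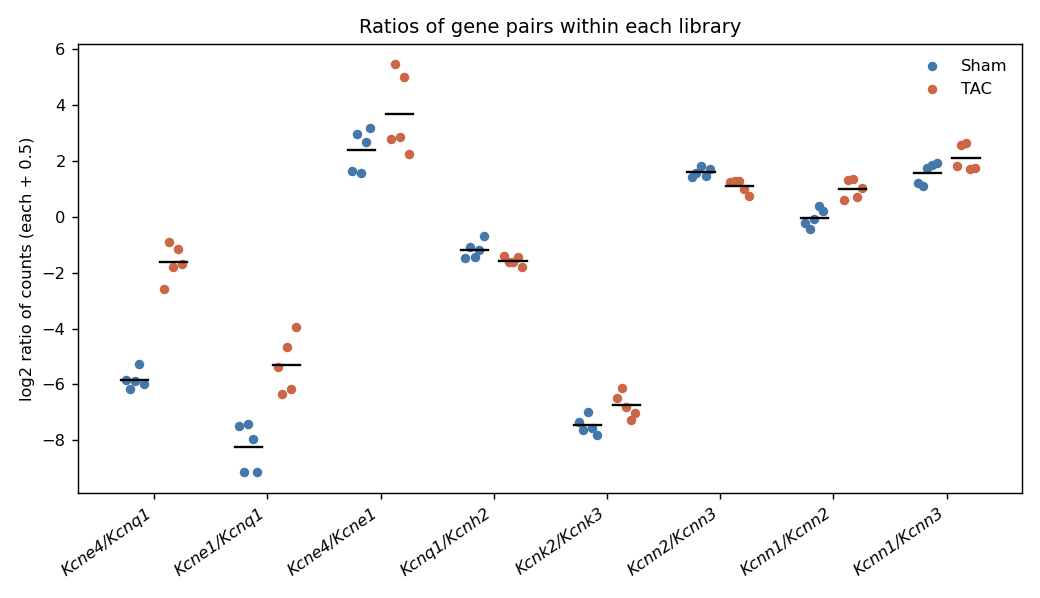
Log2 ratio of counts (each with 0.5 added) for 8 pairs of genes within each Sham (blue) and TAC (orange) library, with group means as black lines. The Kcne4/Kcnq1 points of the groups are far apart, and those of Kcne1/Kcnq1 do not overlap. Points of Kcne4/Kcne1, Kcnq1/Kcnh2, Kcnk2/Kcnk3 and Kcnn1/Kcnn3 overlap.

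Levels were compared between genes per kilobase of exon, over all annotated exons of a gene, so the order depends on that length. In sham the order was Kcnk3 (142 ± 14.9 CPM per kb), Kcnh2 (40.8 ± 6.44), Kcnq1 (21.2 ± 1.41), Kcnn1 (2.78 ± 0.267), Kcnn2 (1.75 ± 0.289), Kcnk2 (0.647 ± 0.113), Kcne4 (0.580 ± 0.142), Kcnn3 (0.414 ± 0.0772) and Kcne1 (0.0935 ± 0.0481, SD, n = 5). The ranges of Kcnk2 and Kcne4, and of Kcne4 and Kcnn3, overlapped, and no other neighbours in that order did. In TAC the first 3 places were the same, with Kcnk3 at 45.5 ± 8.58, Kcnh2 at 24.4 ± 3.95 and Kcnq1 at 9.81 ± 2.20 CPM per kb. Kcne4 moved from place 7 to place 4, at 4.96 ± 1.46 CPM per kb, above Kcnn1 (1.95 ± 0.301) without overlap. Kcnn2 (0.609 ± 0.183), Kcne1 (0.374 ± 0.234), Kcnk2 (0.348 ± 0.117) and Kcnn3 (0.202 ± 0.0590) followed, and each overlapped its neighbours among these 4. Kcnk3 made up 67.6% of the summed mean level of the 9 genes in sham and 51.6% in TAC, and Kcnh2 19.4% and 27.7%.

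**Figure D4:**
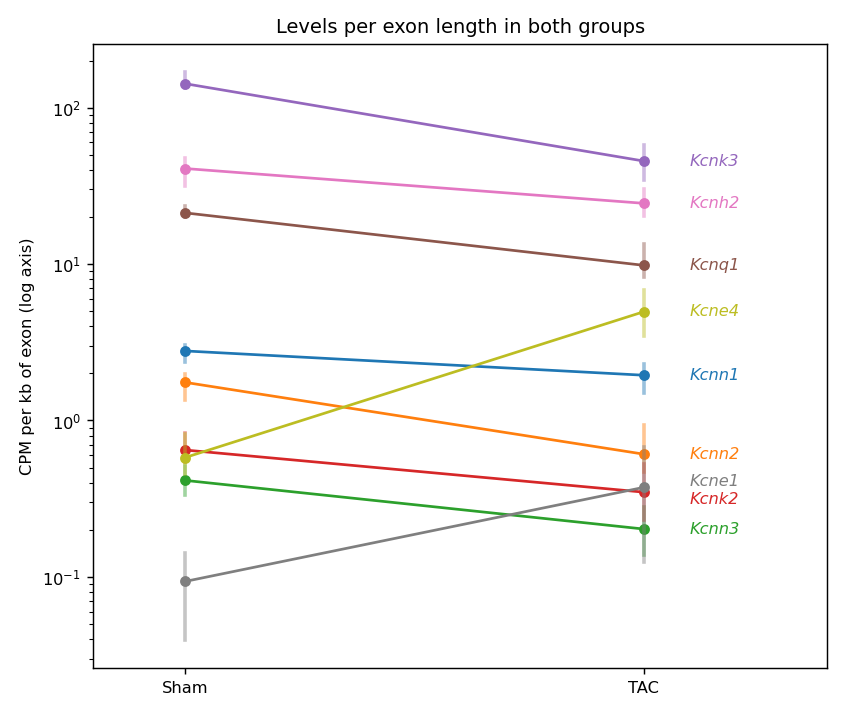
Mean level of each gene per kilobase of exon in Sham and TAC on a log axis, with the range over 5 libraries as a pale bar. Kcne4 crosses from 0.580 to 4.96 CPM per kb, while Kcnk3, Kcnh2 and Kcnq1 keep the first 3 places.

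Set against the summed counts of the 10 cardiomyocyte markers in the same library, the genes separated. The markers themselves fell unevenly, by log2 changes from -0.52 (Actc1) to -2.04 (Myl7). Kcnq1 was at 970 ± 37.8 counts per 1000000 marker counts in sham and 959 ± 91.8 in TAC (log2 difference -0.02, exact permutation p = 0.76, adjusted p = 0.81). Kcnn3 (49.1 ± 11.9 and 51.0 ± 12.4, adjusted p = 0.81 by the same exact permutation test) and Kcnk2 (36.1 ± 7.09 and 41.4 ± 10.6, adjusted p = 0.48, likewise exact) overlapped between groups. Kcnk3 was lower relative to the summed markers, without overlap, at 6297 ± 252 in sham and 4338 ± 410 in TAC (log2 difference -0.54, exact permutation p = 0.0079, adjusted p = 0.017). Among single markers, Myl7 and Tnni3 (log2 changes of -2.04 and -1.74) fell more than Kcnk3 (-1.64), and the rest fell less. Kcnn1 was higher relative to the summed markers, without overlap (143 ± 13.6 and 217 ± 36.2, log2 difference 0.59, exact permutation adjusted p = 0.017). With Myh6, the most abundant marker, left out of the sum, the log2 difference was 0.40 and no longer passed the threshold (exact permutation adjusted p = 0.054). Kcne4 was 18.1-fold higher relative to the markers (log2 difference 4.17, exact permutation adjusted p = 0.017). Kcne4 rose and the summed markers fell, each without overlap, so that ratio had to separate the groups. For Kcne1, which passed the low-count filter through its TAC libraries, the values were 3.66 ± 1.86 in sham and 29.8 ± 20.2 in TAC. For Kcnn2 (log2 difference -0.43, exact permutation adjusted p = 0.079) and Kcnh2 (0.38, adjusted p = 0.074) the groups overlapped. Without Myh6 in the sum, a step added after seeing the data, the log2 difference of Kcnn2 was -0.62 (exact permutation adjusted p = 0.045). That adjustment counts the Kcne1 ratios, so no call is taken from it. The log2 difference of Kcnq1 was then -0.21 (exact permutation adjusted p = 0.079), so its level relative to the markers depends on Myh6.

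TAC replicate 1 was the TAC library nearest to sham for most of these genes. It had the highest TAC level of all 7 genes that fell and the lowest TAC level of Kcne4. Its mitochondrially encoded genes took 14.2% of counts, beside 9.31% to 12.1% in the 4 other TAC libraries and 14.6% to 17.4% in sham. Without that library the log2 fold changes of 8 genes were larger in size and that of Kcne1 was 1.94 in place of 1.95. The median over the 9 genes was then -1.07, and 7 were called lower and 2 higher as before.

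By the distance between expression profiles (the root mean square difference of log2 CPM over 10 libraries, each profile centred on its mean, among 11601 genes), the gene nearest to Kcnh2 was Etv1, at 0.101, followed by Gpld1 at 0.121. For Kcnk3 the nearest were Ppm1l (0.0804) and the myosin heavy chain gene Myh6 (0.0841). For Kcnq1 they were the mitochondrial enzyme genes Pcca (0.0811) and Hadh (0.0831). Kcne4 lay nearest to the procollagen protease gene Adamts2 (0.192) and to Col3a1 (0.199), and Kcne1 to Mcpt4 (0.416) and Hyls1 (0.471). The SK genes lay nearest to Ndc1 (0.0755) and Crhr2 (0.0830) for Kcnn1, Macrod1 (0.189) and Fkbp4 (0.198) for Kcnn2, and Stxbp6 (0.137) and Itfg2 (0.195) for Kcnn3. For Kcnk2 they were Neurl2 (0.183) and Abcb4 (0.196). All 10 libraries enter each distance, so the difference between groups is part of it.

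The other genes of these channel families were mostly absent or scarce. Of 27 listed, 12 passed the low-count filter, and 4 of them rose and 1 fell (median log2 fold change 0.28). The 5 calls among 12 stand beside 56.8% called over all tested genes, and nothing particular to these families is read from them. Kcnn4, which encodes the intermediate-conductance calcium-activated channel of blood and connective tissue cells, rose from 0.504 ± 0.197 to 1.72 ± 0.652 CPM (a log2 change of 1.70, SE 0.34, adjusted p = 0.0012). Kcne3, another auxiliary subunit gene, rose from 0.218 ± 0.0669 to 1.94 ± 1.06 CPM (3.21, SE 0.40, adjusted p = 4.9e-05), and Kcnh3 from 0.192 ± 0.0990 to 0.803 ± 0.454 CPM (2.09, SE 0.47, adjusted p = 0.0027). Both reached the level of the filter in 0 sham libraries and 5 TAC libraries, so these genes had to differ in CPM before scaling. Kcnk13, a two-pore gene, rose from 1.03 ± 0.238 to 2.00 ± 0.424 CPM (0.95, SE 0.23, adjusted p = 0.0037). Kcnh7, a relative of Kcnh2, fell from 11.1 ± 3.06 to 7.67 ± 1.81 CPM (-0.53, SE 0.21, adjusted p = 0.044), a call lost without Sham replicate 1, 2 or 3 or TAC replicate 2, 3, 4 or 5 (adjusted p up to 0.12). It was also lost when scaled by library size alone (-0.18, adjusted p = 0.44), with upper-quartile factors (adjusted p = 0.0665), without the low-count filter (adjusted p = 0.0515) and without both shallow sham libraries (adjusted p = 0.10). Kcne2, a partner of KCNH2, had 0 to 6 counts per library and was not tested.

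Of 49 genes listed as partners of these channels, all passed the filter, with 9 higher and 20 lower (median log2 fold change -0.18). That share is near the 56.8% called over all tested genes, so neither this count nor those of the single partner lists, which are small, is a result about the partners. For the 13 SK partners, 4 rose and 6 fell. Ppp2r1a, a scaffold of the phosphatase PP2A that sits on SK2, fell from 291 ± 12.2 to 184 ± 13.3 CPM (a log2 change of -0.66, SE 0.07, adjusted p = 2.0e-05). For the 12 two-pore partners, 3 rose and 2 fell. Sort1, which encodes the sorting receptor sortilin, fell from 633 ± 48.7 to 353 ± 27.9 CPM, and Vps4b rose from 41.5 ± 2.57 to 52.6 ± 2.93 CPM (SD, n = 5).

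For the 10 partners of KCNQ1, 5 fell and the rest were not called. The phosphodiesterase gene Pde4d fell from 33.5 ± 6.08 to 19.1 ± 2.46 CPM (a log2 change of -0.81, SE 0.13, adjusted p = 0.00030 with edgeR). For the 14 partners of KCNH2, which are largely chaperones and ubiquitin ligases of its folding and turnover, 7 fell and 2 rose. Rnf207, whose RING finger protein acts on KCNH2, fell from 30.1 ± 3.99 to 11.6 ± 2.70 CPM (-1.38, SE 0.15, adjusted p = 2.0e-05). Kif11, a mitotic kinesin gene on the same list, rose from 1.27 ± 0.733 to 26.5 ± 10.8 CPM (4.36, SE 0.43, adjusted p = 1.3e-05). Its tie to KCNH2 was not tested. When library size alone was used for scaling, 27 of the 60 tested family and partner genes were called higher and 9 lower, in place of 13 and 21. Kcnh6, listed both in the KCNH family and with the KCNH2 partners, was counted once.

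**Figure D5:**
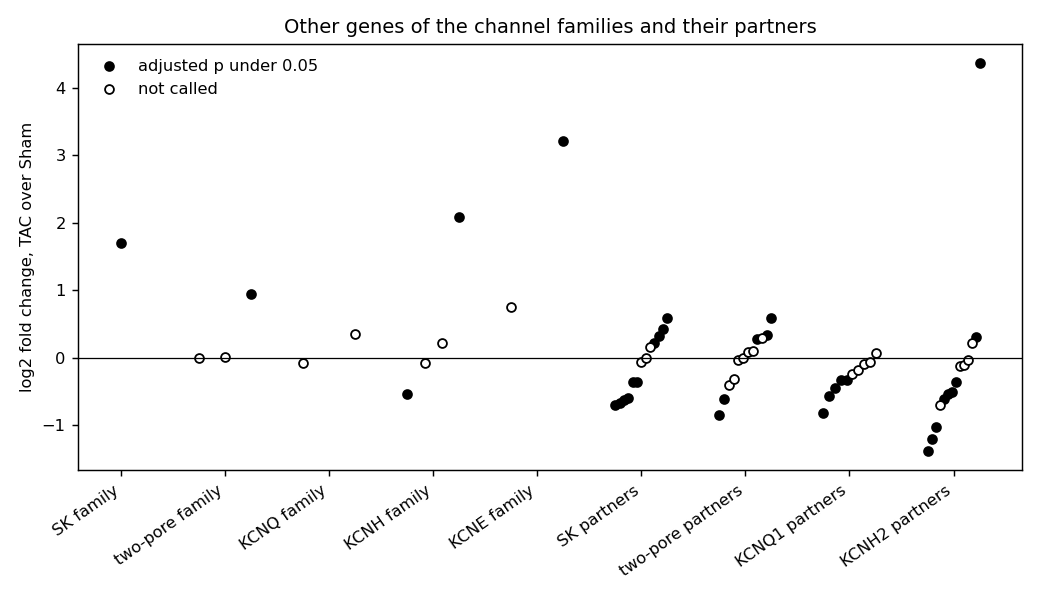
Log2 fold change of TAC over Sham for the tested genes of each family and partner list, with filled circles for an adjusted p under 0.05 and open circles for the rest. The largest values are those of Kif11 (4.36), Kcne3 (3.21) and Kcnh3 (2.09), and the KCNQ1 partners called all lie below 0.

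Markers of neurons, which also carry SK and two-pore channels, were scarce. Their sum was 3.92 to 9.13 CPM in sham and 3.76 to 9.18 CPM in TAC, Chat was at 0 in all libraries, and 5 of the 7 did not pass the filter. Endothelial markers summed to 892 to 1274 CPM in sham and 916 to 1286 CPM in TAC, with 3 of 7 higher and 1 lower. Pericyte markers, 4 of 6 higher and 1 lower, summed to 403 to 475 CPM in sham and 626 to 790 CPM in TAC. Schwann cell markers summed to 44.4 to 55.8 CPM in sham and 25.3 to 37.8 CPM in TAC, with 3 of 4 tested lower. Adipocyte markers ran from 10.8 to 46.4 CPM in sham and from 0.274 to 8.31 CPM in TAC. Sums for lymphocyte markers were 4.22 to 10.5 and 12.8 to 35.4 CPM, for mesothelial markers 72.7 to 275 and 112 to 277 CPM, for nodal markers 19.6 to 35.3 and 13.6 to 32.4 CPM, for ventricular markers 21.2 to 540 and 17.9 to 327 CPM, and for lung markers at most 0.517 and 2.37 CPM, in sham and TAC.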

How the data were processed

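Bulk RNA from 10 left atrial libraries (5 Sham, 5 TAC, grouped by title) was analysed from raw counts per gene symbol, which the authors deposited without normalization. STAR, bcl2fastq and build mm10 appear in the submitters' processing notes, and the choice of counter, strand setting and annotation was not given in the sources used here. Tallies that name no gene (25.9% to 29.1% of each table) were left out. The test was the edgeR 4.0.16 quasi-likelihood F test in R 4.3.3 on all 15175 genes passing filterByExpr, with TMM factors, robust estimation, group as the only term, and calls at a Benjamini-Hochberg adjusted p under 0.05. An SE is the size of the log2 fold change divided by the square root of F. Ratios took counts plus 0.5 and exact two-sided permutation tests in scipy 1.17.1. Their adjustment ran over 17 ratios, those of Kcne1 included. Exon lengths and overlaps came from GENCODE M21 (GRCm38), which matched 46294 of 48397 symbols. Alternatives were other scalings, filters and tools (DESeq2 1.42.0, limma 3.58.1), a replicate block, and each library left out. Removal of both shallow sham libraries and of the most abundant marker was added after seeing the data. The test was checked on simulated counts.

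The 9 genes, the gene lists and the rule for named genes were chosen with earlier results of these data known. The rule took the 9 genes and Kcnq1ot1, and from each family and partner list the called gene of smallest adjusted p in each direction (or the most abundant where none was called), and the 2 genes of nearest profile whose mean log2 CPM reached 1. Of the genes this rule names, 2 are not reported here. The 4 neighbours A230052G05Rik, A330093E20Rik, A430027H14Rik and Gm9899 were added from the annotation.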

Additional observations from a re-analysis of the deposited data

Results flagged for a closer look

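Among 34 groups of 5 values examined (18 of CPM and 16 of log2 ratios), 2 had a library whose gap to its nearest neighbour exceeded 0.71 of the range of the group. Chance gives about 1 such group in 20. Kcnn2 stood at 6.94 CPM in TAC replicate 1, and the next TAC library was at 4.20 CPM. Without TAC replicate 1 the log2 fold change of Kcnn2 was -1.71. Kcnk3 stood at 668 CPM in Sham replicate 5, and the next sham library was at 562 CPM.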

How the results depend on the processing

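Each of the 9 genes kept its direction under every alternative that gave it a value. With library size as the only scaling, Kcnn1 lost its call (-0.16), and 27 family and partner genes were called higher and 9 lower. With a filter of at least 1 CPM in at least 5 libraries, Kcne1 was not tested and 1 of the 9 genes was called higher. Leaving out each library in turn left 7 of the 9 called lower and 2 higher, and removing both shallow sham libraries gave the same. Counts of called genes over the whole table ran from 7972 to 9670, against 8616 in the reported fit. Replicate numbers are shared between groups, but same-numbered libraries did not deviate together (correlations from -0.04 to 0.08) and only 1 of 5 correlated best with its own number. With the replicate number as a block, 8020 genes, 7 of the 9 lower and 2 higher were called. For the ratios, those of Kcne1 included, the within-number sign-flip test with the replicate block called 0 of 17, in place of 9. With 5 pairs that test cannot reach the threshold. Depth limits Kcne1, with 2 to 82 counts per library, and Kcnk2 and Kcnn3, with 39 to 143.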
